A study of Mus musculus with 24 samples.

Results

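Cytochromes P450 of families 2, 3 and 4 are haem enzymes of the endoplasmic reticulum that oxidise drugs, other foreign compounds, steroids and fatty acids. The members described here are all genes of the count table whose symbol is Cyp with family number 2, 3 or 4, a subfamily letter and a gene number. This gave 72 of the 24421 genes in the table. Of these, 55 passed the filter on low counts and 17 did not. The rule leaves out 11 further symbols of these families, 4 of them pseudogenes and the others symbols of another form, among them the gene pairs Cyp4a12a and Cyp4a12b, and Cyp3a41a and Cyp3a41b.

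RNA came from the medial liver lobe of C57BL/6 mice. They had been injected with MitoCDNB at 5 mg/kg or with a vehicle containing 0.1% ethanol, and liver was taken 1 h or 4 h later. Each of the 4 groups held 6 mice, so there were 24 libraries, and all groups shared the strain, the lobe and the injection. MitoCDNB is a chlorodinitrobenzene joined to a lipophilic cation that carries it into mitochondria, where it was designed to deplete glutathione and inhibit thioredoxin reductase. The sources used here do not give the age, the sex or the feeding state of the mice, the clock time of sampling, or whether MitoCDNB was given in the same vehicle. All 24 libraries held the Y-linked transcripts Ddx3y (33.1 to 57.3 CPM, counts-per-million) and Eif2s3y (31.0 to 43.1 CPM), and Xist was at most 0.313 CPM.

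P450 enzymes need electrons from NADPH-P450 reductase (Por) and a haem group made by a pathway that starts at Alas1. In hepatocytes their genes are switched by nuclear receptors: CAR drives Cyp2b10, PXR drives Cyp3a11, and PPAR alpha drives the Cyp4a genes. HNF4 alpha holds up many of them, growth hormone sets sex-biased ones such as Cyp2d9, Cyp3a44 and Cyp2a4, and the clock gives several a daily rhythm. Family 2 and 3 enzymes are known mostly for drugs, steroids and arachidonic acid epoxides, and family 4 for omega-hydroxylation of fatty acids and leukotrienes.

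Total counts ran from 25.13 M to 37.23 M per library, with a mean of 30.28 M. The 10 hepatocyte markers summed to 59500 CPM or more in every library, and 0 of them passed the test at either time. Replicates 4 to 6 of both 1 h groups held more brain marker RNA (12 genes, summed 12.5 to 17.5 CPM) than replicates 1 to 3 (6.46 to 10.2 CPM). On the second principal component of log2 CPM, vehicle replicate 1 (-28.7) and MitoCDNB replicate 2 (-37.2) of 4 h lay below all other libraries, of which the lowest was at -13.7. Values for the members at 4 h without that pair are given beside the results.

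The members held a mean of 1.31% ± 0.209 of all counts in vehicle livers at 1 h and 1.16% ± 0.173 after MitoCDNB (SD, n = 6). At 4 h their share was 1.26% ± 0.209 in vehicle livers and 1.30% ± 0.201 after MitoCDNB. A few enzymes carried most of this RNA. Divided by exon length, the 5 most abundant members held 55.6% of the summed level of the members with a known length, 10 held 74.2% and 20 held 92.1%. These levels are CPM per kilobase of merged exons, so a gene with a long minor isoform, such as Cyp3a11, is set low by them.

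**Figure D1:**
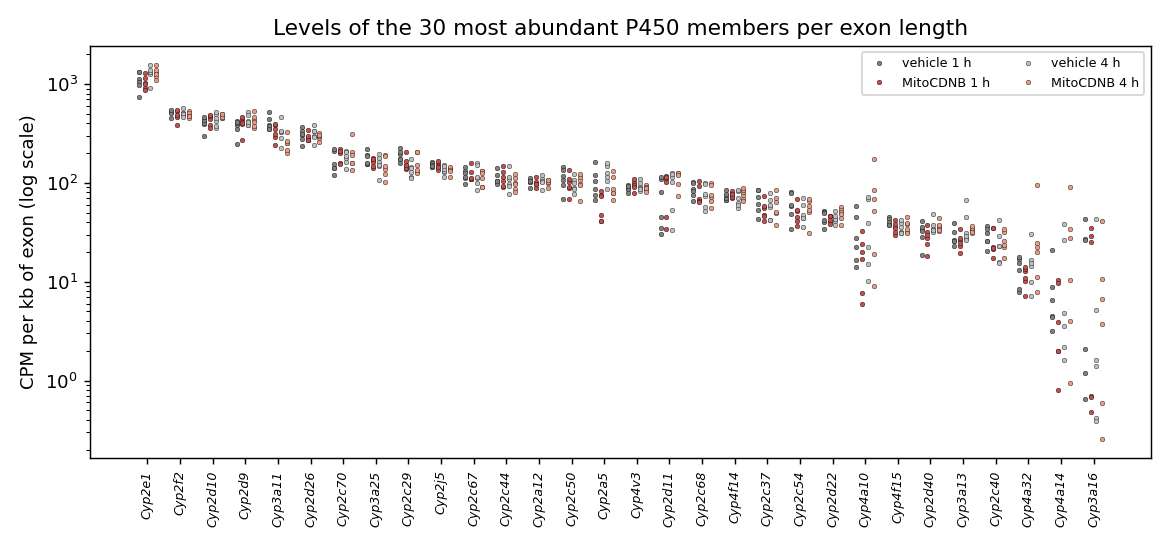
Level of the 30 most abundant members with a known exon length, in CPM per kilobase of exon on a log scale (y axis), with 1 point per library and the 4 groups side by side for each gene (x axis). Cyp2e1 stands above the others, at a mean of 1180, and the points of Cyp4a10, Cyp4a14 and Cyp3a16 spread far more than those of their neighbours.

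Cyp2e1, which oxidises ethanol, acetone and paracetamol, was the most abundant member at 1180 ± 213 CPM per kilobase (SD over the 24 libraries). Cyp2f2, known for activating naphthalene and expressed mainly around the portal vein, followed at 497 ± 40.3. Below it came Cyp2d10 (440 ± 55), the male-biased steroid hydroxylase Cyp2d9 (408 ± 64.2), Cyp3a11 (327 ± 79.8) and Cyp2d26 (302 ± 35.7). Each of these differed from its neighbour by less than their summed SDs, so the order of neighbours is not resolved by that measure. It does not use that all genes were measured in the same 24 libraries. By CPM not divided by length Cyp3a11 (1660) came second after Cyp2e1 (2550), ahead of Cyp2d9 (1080) and Cyp2f2 (1010). After a gap came Cyp2c70, which makes the muricholic bile acids of mice (183 ± 41.7), Cyp3a25 (162 ± 28.0), Cyp2c29 (161 ± 32.4) and the arachidonic acid epoxygenase Cyp2j5 (143 ± 13), whose order is not resolved by their spread.

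None of the 10 most abundant members passed the test for MitoCDNB at either time. Cyp2e1 was at 1600, 2330 and 2880 CPM (lowest, median and highest library) in vehicle and 1900, 2180 and 2790 CPM after MitoCDNB at 1 h. Its log2 fold change was -0.06 at 1 h (SE 0.133) and 0.01 at 4 h (SE 0.133). The least variable of all members was Cyp2f2, with an SD of 0.0959 on the log2 CPM scale in the vehicle groups and log2 fold changes of -0.10 (SE 0.0746) at 1 h and -0.06 (SE 0.0746) at 4 h. For Cyp2d26 they were -0.07 (SE 0.0996) and -0.08 (SE 0.0996), and for Cyp2j5 -0.03 (SE 0.0709) and -0.02 (SE 0.0709). Cyp2d10 (0.12 and 0.11), Cyp2d9 (0.10 and -0.00), Cyp2c70 (0.22 and 0.11) and Cyp3a25 (-0.12 and -0.08) were within 0.3 of 0 as well.

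The comparison at 1 h asked which members MitoCDNB had altered soon after the injection. Across all 13833 tested genes 6.57% were called at an adjusted p under 0.05 (edgeR's quasi-likelihood test with Benjamini-Hochberg adjustment). Of the 55 tested members, 3 were called (5.45%), which is near that background. Cyp2a5 and Cyp2d13 fell (2 members, beside 3.87% of all genes) and Cyp2t4 rose (1 member, beside 2.7% of all genes). The groups did not overlap for 0 of the 55 members, beside 4.74% of all genes. In all, 36 members had a negative and 19 a positive log2 fold change. Their median was -0.105, beside 0.003 over all tested genes. The median deviation of single libraries from their group had an SD of 0.098, of similar size. That SD is a spread of single libraries, not the error of a difference between groups. With 1 library left out the median ran from -0.148 to -0.035 (without MitoCDNB replicate 2), and it was -0.031 within replicates 1 to 3 and -0.064 within replicates 4 to 6.

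Cyp2a5, on chromosome 7 (chr7:26835305-26843548, mm10), hydroxylates coumarin and nicotine. It was at 138, 198 and 338 CPM (lowest, median and highest library) in vehicle and at 85.7, 125 and 170 CPM after MitoCDNB at 1 h. The groups overlapped, since 2 vehicle livers lay below the highest treated one, but all 6 treated libraries lay below the vehicle mean. Its log2 fold change was -0.77 (SE 0.230, adjusted p = 0.0451), from 213 ± 73.4 to 125 ± 38.5 CPM (SD, n = 6). It was -0.65 within replicates 1 to 3 and -0.87 within replicates 4 to 6. At 4 h Cyp2a5 was at 255 ± 55.7 CPM in vehicle and 193 ± 52.4 CPM after MitoCDNB (log2 -0.40, SE 0.229, adjusted p = 0.449).

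Reads of Cyp2a5 are hard to tell from those of Cyp2a4, a testosterone hydroxylase. Their coding sequences differ at 23 of 1482 bases, and 37% of the 50-base stretches of Cyp2a5 transcripts also occur in other genes, 28.1% in Cyp2a4 and 16.2% in the pseudogene Cyp2a21-ps. Cyp2a4 itself was at 0.0590 to 5.26 CPM over all libraries, and the sum of both was at 85.9 to 339 CPM. The first 60 coding bases show how close they are, with the single difference in capitals (GENCODE M21, plus strand, Cyp2a5 at chr7:26835364-26835423 and Cyp2a4 at chr7:26307218-26307277).
Cyp2a5: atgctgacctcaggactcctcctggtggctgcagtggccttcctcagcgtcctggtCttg
Cyp2a4: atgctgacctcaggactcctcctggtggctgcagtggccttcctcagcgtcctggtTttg

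Cyp2d13 (chr15:82636750-82642045), which RefSeq lists as a transcribed pseudogene, was at 148, 207 and 248 CPM in vehicle and at 146, 159 and 199 CPM after MitoCDNB at 1 h. In vehicle, 5 of 6 libraries lay above every treated one, and replicate 3 lay among the treated. This gave a log2 fold change of -0.31 (SE 0.0932, adjusted p = 0.0445). It was -0.41 within replicates 1 to 3 and -0.22 within replicates 4 to 6. At 4 h the levels were 206 ± 18.7 CPM in vehicle and 200 ± 14 CPM after MitoCDNB (SD, n = 6).

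Cyp2t4 (chr7:27153714-27158668) was the only member called higher at 1 h, and its RNA was scarce. It was at 0.207, 0.306 and 0.484 CPM in vehicle and at 0.363, 0.627 and 0.999 CPM after MitoCDNB. The treated library of replicate 2 lay within the vehicle range, and all 6 treated libraries lay above the vehicle mean. The log2 fold change was 0.89 (SE 0.268, adjusted p = 0.0446). Replicates 1 to 3 alone gave 0.26 (adjusted p = 0.784), and replicates 4 to 6 alone gave 1.53 (SE 0.365). With a term for replicates 4 to 6 of 1 h the value was 0.89 and no longer passed (adjusted p = 0.0521). The difference thus rested mostly on replicates 4 to 6, in which brain markers were also higher in both groups. The part of these markers was not tested. At 4 h Cyp2t4 lay lower after MitoCDNB, 0.210 ± 0.0898 against 0.283 ± 0.0593 CPM, with an adjusted p of 0.606.

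All 3 calls were near the threshold. In a fit of only the groups compared none of them passed, with adjusted p of 0.0825 for Cyp2d13, 0.101 for Cyp2a5 and 0.0641 for Cyp2t4 (edgeR). Leaving out 1 library at a time, Cyp2a5 passed in 5, Cyp2t4 in 3 and Cyp2d13 in 2 of 12 fits, with adjusted p up to 0.140, 0.152 and 0.137. The number of members called fell to 0 without vehicle replicate 4, vehicle replicate 5, MitoCDNB replicate 3 or MitoCDNB replicate 5. It fell to 1 without vehicle replicate 1, 2 or 6 or MitoCDNB replicate 1, 2 or 6. The 5 cholangiocyte markers summed to 21.5 to 54.1 CPM after MitoCDNB at 1 h and to 20.1 to 28.0 CPM in vehicle. Their part in these differences was not tested.

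**Figure D2:**
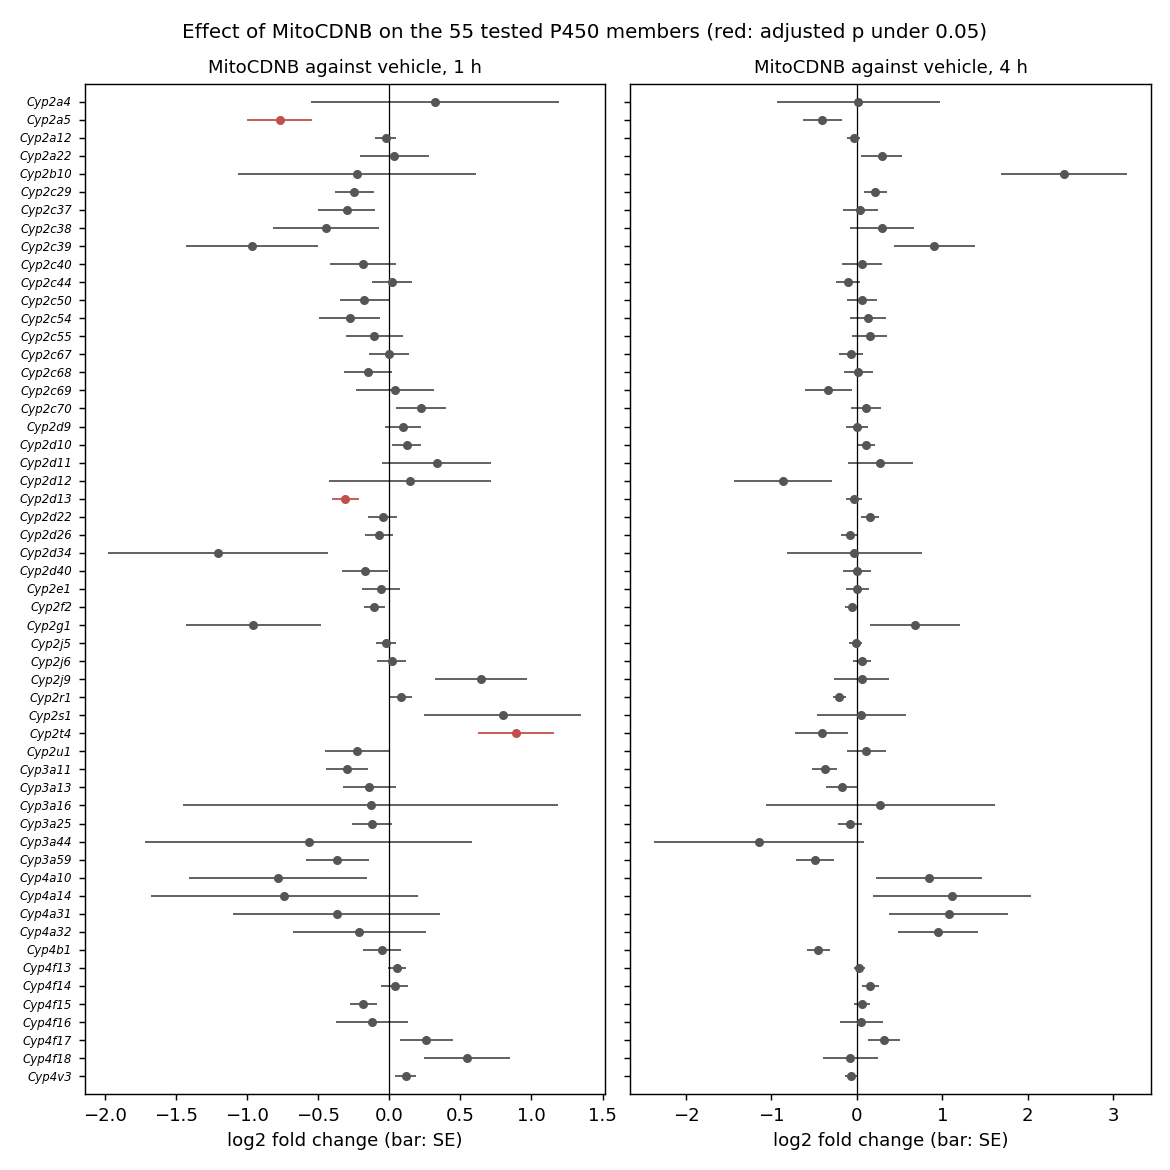
Log2 fold change of MitoCDNB against vehicle (x axis) for each of the 55 tested members (y axis, ordered by subfamily), at 1 h on the left and 4 h on the right, with bars of 1 SE and called members in red. Cyp2a5, Cyp2d13 and Cyp2t4 are the 3 red points, all at 1 h, and the widest bars belong to Cyp3a16 and Cyp3a44.

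By subfamily at 1 h, 0 of 6 tested Cyp3a members were called, and all 6 had a negative log2 fold change, from -0.57 to -0.12. Cyp3a11, which metabolises a wide range of drugs, was at 1770, 1930 and 2650 CPM in vehicle and 1240, 1680 and 1990 CPM after MitoCDNB (log2 -0.30, SE 0.148, adjusted p = 0.303). Among the 13 tested Cyp2c members 10 were negative and 0 were called. The 4 tested Cyp4a members were all negative, with a median of -0.556, and 0 were called. In the Cyp4f subfamily, which inactivates leukotrienes and other eicosanoids, 4 of 6 were positive and 0 were called. Its most abundant member, Cyp4f14, had a log2 fold change of 0.04 (SE 0.0953).

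**Figure D3:**
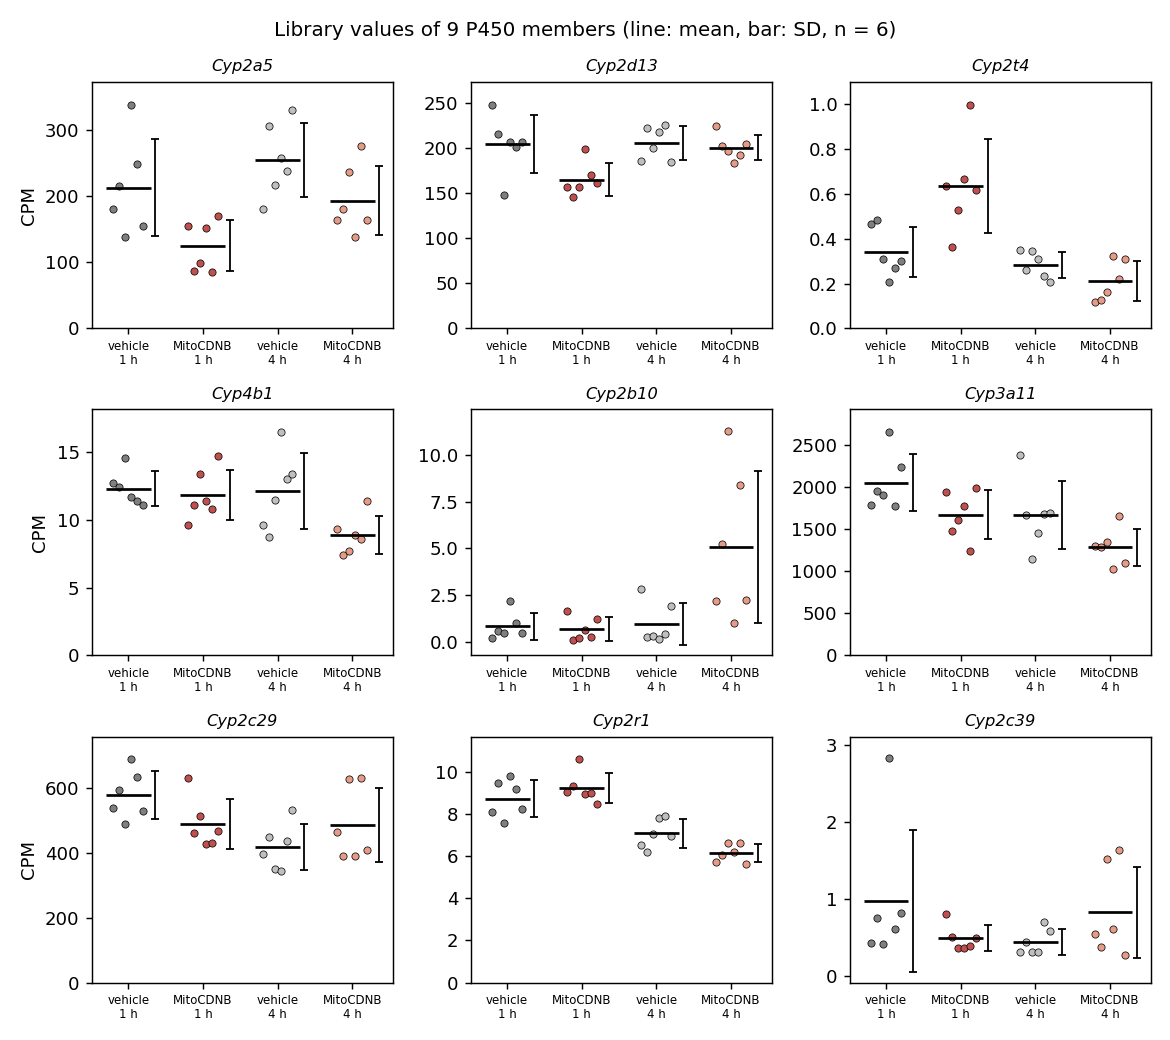
CPM of 9 members (y axis, linear scale, a panel per gene) in each library of the 4 groups (x axis), with points for libraries, a line for the mean and a bar for the SD (n = 6). Cyp2a5 is lower after MitoCDNB at 1 h, Cyp2b10 reaches 11.3 CPM in 1 library treated for 4 h, and Cyp2r1 is lower in both 4 h groups than at 1 h.

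At 4 h the test called 0.824% of all genes and 0 of the 55 members. At an unadjusted p under 0.05 there were 5 members (9.09%), beside 14.3% of all genes. DESeq2 called 1 member, Cyp4b1, beside 2.52% of all genes, and limma-voom called 0 beside 1.62%. The groups did not overlap for 0 members, beside 0.896% of all genes. The median log2 fold change of the members was 0.042, beside -0.004 over all genes. This is less than the SD of single libraries' median deviations, 0.122, and the sign turned without vehicle replicate 3 (-0.024) or vehicle replicate 4 (-0.021). Omissions of the other libraries gave 0.007 to 0.072. The 3 members with the smallest p were Cyp4b1, Cyp2b10 and Cyp3a11.

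Cyp4b1 (chr4:115624725-115647723), which hydroxylates medium-chain fatty acids and some protoxins, was at 8.73, 12.2 and 16.5 CPM in vehicle at 4 h and at 7.38, 8.73 and 11.4 CPM after MitoCDNB. All 6 treated livers lay below the vehicle mean, with overlapping groups. The log2 fold change was -0.45 (SE 0.132, adjusted p = 0.101). By DESeq2 it was -0.45 (adjusted p = 0.0490), and without vehicle replicate 1 it was -0.51 (adjusted p = 0.0377, edgeR). Over all alternatives run the adjusted p ran from 0.0490 to 0.254, and over single omissions from 0.0377 to 0.207. Without the pair that stood apart the value was -0.46 (adjusted p = 0.0855). At 1 h its log2 fold change was -0.05 (SE 0.131).

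Cyp2b10 (chr7:25897620-25926624), the gene by which CAR activation is usually read, was scarce at 1 h in both groups, with means of 0.808 ± 0.719 and 0.668 ± 0.629 CPM (SD, n = 6). At 4 h it was at 0.112, 0.341 and 2.82 CPM in vehicle and at 1.00, 3.71 and 11.3 CPM after MitoCDNB. The 2 vehicle livers of replicates 1 and 6 reached into the treated range, and all 6 treated livers lay above the vehicle mean. In log2 terms the difference was 2.42 (SE 0.739, adjusted p = 0.119). Without vehicle replicate 1, which stood apart on the second principal component, it was 3.14 (adjusted p = 0.0361), and without both libraries of the pair 3.13 (SE 0.83, adjusted p = 0.0600). Over the other alternatives it ran from 2.41 to 3.49, with adjusted p from 0.0600 to 0.272. The other 4 Cyp2b genes did not pass the filter on low counts.

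Cyp3a11 (chr5:145854426-145879964) was at 1140, 1670 and 2370 CPM in vehicle at 4 h and at 1020, 1290 and 1650 CPM after MitoCDNB. Vehicle replicate 1 held the highest value, and 1 vehicle liver, replicate 3, lay among the lowest treated ones. Its log2 fold change was -0.38 (SE 0.148, adjusted p = 0.226), and -0.22 by limma-voom. Without the pair that stood apart it was -0.25 (SE 0.147, adjusted p = 0.462). So Cyp2b10 and Cyp3a11 had log2 fold changes of opposite sign at 4 h. Within groups, however, their levels had r = 0.74 over the 24 libraries (Spearman's rho 0.73, r = 0.65 without the 2 libraries farthest from the median of Cyp2b10).

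Of 11 tested CAR and PXR targets outside the P450 genes 0 were called at 4 h, and 1 at 1 h, the stress-induced Gadd45b (log2 2.23, adjusted p = 0.00115), beside 0.824% and 6.57% of all genes. The transporter gene Slco1a4 had the smallest p of that list at 4 h (log2 0.67, adjusted p = 0.319). CAR itself, Nr1i3, named outside the rule and after its values were seen, was at 46.7 ± 15.9 CPM in vehicle and 35.6 ± 7.38 CPM after MitoCDNB at 1 h, and at 65.3 ± 15.5 and 59.8 ± 6.59 CPM at 4 h (adjusted p = 0.268 and 0.817).

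The interaction asked whether the effect of MitoCDNB differed between 4 h and 1 h. It called 4.07% of all genes and 0 of the 55 members. At an unadjusted p under 0.05 there were 8 members (14.5%), beside 16.9% of all genes. DESeq2 called 0 beside 5.39%, and limma-voom called 1, Cyp2t4, beside 6.6%. The median over members was 0.056, beside -0.006 over all genes, and 0.167 by limma-voom. Single omissions gave 0.032 to 0.129, the highest without MitoCDNB replicate 4 of 4 h and the next, 0.121, without vehicle replicate 1 of 4 h. The lowest was without MitoCDNB replicate 2 of 4 h, and the SD of single libraries' median deviations was 0.109.

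The smallest p belonged to Cyp2t4, whose log2 fold change was 1.30 lower at 4 h than at 1 h, an interaction of -1.30 (SE 0.411, adjusted p = 0.0783, and 0.0484 by limma-voom). Cyp2c39, a retinoic acid hydroxylase, came next at 1.87 (SE 0.665, adjusted p = 0.126). Its RNA was scarce, at 0.976 ± 0.920 and 0.493 ± 0.169 CPM at 1 h and 0.444 ± 0.166 and 0.830 ± 0.590 CPM at 4 h (vehicle and MitoCDNB, SD, n = 6). Without vehicle replicate 4 of 1 h, at 2.82 CPM, its interaction was 1.20 (adjusted p = 0.270). The third was Cyp2r1, with -0.28 (SE 0.114, adjusted p = 0.185). For Cyp2b10 it was 2.65 (SE 1.11, adjusted p = 0.215).

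The vehicle groups were compared over time, 4 h against 1 h, which asked how members differed without MitoCDNB. All 4 h libraries carry lower library numbers than all 1 h libraries, so time and library number cannot be told apart. In this comparison 5.44% of all genes and 2 of the 55 members (3.64%) were called. Both members were lower at 4 h, beside 2.46% of all genes lower and 2.99% higher. The median over members was -0.034, beside -0.002 over all genes, with -0.112 by limma-voom, -0.077 to -0.016 in single omissions and an SD of single libraries' median deviations of 0.121.

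Cyp2r1 (chr7:114549682-114562972) makes 25-hydroxyvitamin D in the liver. It was at 7.56, 8.72 and 9.78 CPM in vehicle at 1 h and at 6.20, 7 and 7.89 CPM at 4 h, and the lowest library of 1 h lay below the 2 highest of 4 h. The log2 difference was -0.30 (SE 0.0804, adjusted p = 0.0267). After MitoCDNB it was at 8.46, 9.02 and 10.6 CPM at 1 h and 5.64, 6.11 and 6.64 CPM at 4 h. Within 4 h the log2 fold change of MitoCDNB was -0.20 (SE 0.0814, adjusted p = 0.237). With a term for replicates 4 to 6 of 1 h the adjusted p of the time difference was 0.0607, and without the pair of 4 h libraries that stood apart it was 0.0514.

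Cyp2c29 (chr19:39269405-39330713), an epoxygenase of arachidonic acid found mainly around the central vein, was at 489, 566 and 689 CPM in vehicle at 1 h and at 344, 416 and 532 CPM at 4 h. All 6 livers of 4 h lay below the 1 h mean, and the groups overlapped. The log2 difference was -0.47 (SE 0.135, adjusted p = 0.0402). It had an adjusted p of 0.0771 with the term for replicates 4 to 6 and of 0.0552 without the pair of 4 h libraries. Without that pair a different member passed, Cyp2c55 (log2 -0.69, adjusted p = 0.0384), which is named after its values were seen. In single omissions Cyp2r1 passed in 6 and Cyp2c29 in 3 of 12 fits. No member was called without vehicle replicate 2, 4 or 5 of 1 h or replicate 3 of 4 h, and 1 was called without replicate 1 or 6 of 1 h or replicate 1, 2, 4 or 5 of 4 h (Cyp2c55 without replicate 1 of 4 h). After MitoCDNB Cyp2c29 was at 427, 464 and 631 CPM at 1 h and 389, 436 and 632 CPM at 4 h. Its log2 fold change for MitoCDNB was -0.25 (SE 0.135) at 1 h and 0.22 (SE 0.135) at 4 h, with an interaction of 0.46 (SE 0.191, adjusted p = 0.197, edgeR). At 1 h the fold change was -0.02 within replicates 1 to 3 and -0.48 (adjusted p = 0.0399, edgeR) within replicates 4 to 6.

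Several members differed more between livers of 1 group than between groups. In the vehicle groups the SD of log2 CPM was 2.63 for Cyp3a44, 2.57 for Cyp3a16 and 1.65 for Cyp2d34, the 3 largest among members with a mean of at least 1 CPM, beside 0.0959 for Cyp2f2. Cyp3a16 and Cyp3a44 are steroid hydroxylases known for fetal or female-biased expression in mouse liver. Cyp3a16 was at 1.12, 24.6 and 74.3 CPM in vehicle at 1 h and at 0.675, 2.59 and 75.3 CPM at 4 h. After MitoCDNB it was at 0.832, 22.6 and 60.5 CPM at 1 h and 0.442, 8.99 and 71.0 CPM at 4 h. The lowest library of each group was thus at 0.442 to 1.12 CPM and the highest at 60.5 to 75.3 CPM.

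Cyp3a44 ranged from 0.313 to 62.9 CPM. In some livers both genes were high, as in vehicle replicate 3 of 1 h (44.5 CPM of Cyp3a44 and 74.3 CPM of Cyp3a16) and MitoCDNB replicate 6 of 1 h (46.0 and 60.5 CPM). In others 1 was high alone: vehicle replicate 4 of 1 h held 62.9 CPM of Cyp3a44 and 3.58 CPM of Cyp3a16, and vehicle replicate 1 of 4 h held 0.836 and 75.3 CPM. Within groups r was 0.25 (Spearman's rho 0.28, and r = 0.34 without the 2 libraries farthest from the median of Cyp3a16). Their sum still ranged from 0.943 to 119 CPM. The coefficient of variation over the 24 libraries was 104% for the sum, 125% for Cyp3a16 and 141% for Cyp3a44. No call was made on either gene, with SEs of 1.15 to 1.34 for their log2 fold changes. At 4 h the value of Cyp3a16 was 0.27, and 2.68 (SE 1.49, adjusted p = 0.431) without the pair of libraries that stood apart, while Cyp3a44 without it had -1.34 (SE 1.37). Cyp2d34 was at 0.481 to 12.6 CPM.

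The 2 genes start alike and differ along their length. Over the whole coding sequence of 1512 bases Cyp3a16 and Cyp3a44 differ at 115, Cyp3a16 and Cyp3a11 at 109, and Cyp3a44 and Cyp3a11 at 77. Of the 50-base stretches in transcripts, 10.7% in Cyp3a16 and 26.5% in Cyp3a44 also occur in another gene, for Cyp3a44 most in Cyp3a41a. The first 60 coding bases are shown since these are the members with the largest spread, with capitals where the 3 genes differ (GENCODE M21, minus strand, Cyp3a11 at chr5:145879717-145879776, Cyp3a16 at chr5:145469581-145469640 and Cyp3a44 at chr5:145805730-145805789).
Cyp3a11: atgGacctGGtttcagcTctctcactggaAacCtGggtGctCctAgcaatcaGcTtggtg
Cyp3a16: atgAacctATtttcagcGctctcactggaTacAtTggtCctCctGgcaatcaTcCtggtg
Cyp3a44: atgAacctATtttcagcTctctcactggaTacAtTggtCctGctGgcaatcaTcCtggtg

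The Cyp4a genes, which make dicarboxylic acid precursors by omega-hydroxylation of fatty acids and are standard targets of PPAR alpha, varied together. Cyp4a10 was at 29.8, 52.9 and 124 CPM in vehicle and 12.5, 39.1 and 69.1 CPM after MitoCDNB at 1 h. At 4 h it was at 21.6, 64.7 and 152 CPM in vehicle and 19.1, 128 and 370 CPM after MitoCDNB. The highest value was that of MitoCDNB replicate 2 of 4 h, 1 of the pair of libraries that stood apart, and the lowest of that group, replicate 1, was below all vehicle livers of 4 h. The log2 fold change of Cyp4a10 was -0.78 (SE 0.626) at 1 h and 0.85 (SE 0.622) at 4 h, with adjusted p of 0.607 and 0.594. Without the pair it was 0.56 at 4 h (SE 0.632, adjusted p = 0.764).

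Cyp4a14, Cyp4a31 and Cyp4a32, named after their values were seen, had the same library on top at 4 h, at 235, 75.9 and 146 CPM. Their log2 fold changes at 4 h were 1.12 (SE 0.922), 1.08 (SE 0.696) and 0.95 (SE 0.464), and their adjusted p ran from 0.361 to 0.648. Without the pair they were 0.99 (SE 0.913), 0.70 (SE 0.686) and 0.44 (SE 0.311), with adjusted p of 0.568 to 0.716. Within groups the 6 pairs of the 4 genes had r of 0.81 to 0.95 over 24 libraries, and 0.76 to 0.93 over the 22 without the pair that stood apart. The pair with the highest r was Cyp4a10 and Cyp4a14, at 0.95 (Spearman's rho 0.96). Cyp4a14 shares 0.235% of its 50-base stretches with other genes and Cyp4a10 shares 29.8%, and the part of shared sequence in r was not tested.

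The starts of the 4 coding sequences are shown because Cyp4a14 stands apart there, with capitals where they differ (GENCODE M21; Cyp4a10 at chr4:115518322-115518381, Cyp4a31 at chr4:115563717-115563776 and Cyp4a32 at chr4:115600975-115601034 on the plus strand, Cyp4a14 at chr4:115496054-115496113 on the minus strand). Over these 60 bases Cyp4a14 differs from Cyp4a10 at 24, and Cyp4a32 from Cyp4a10 at 1.
Cyp4a10: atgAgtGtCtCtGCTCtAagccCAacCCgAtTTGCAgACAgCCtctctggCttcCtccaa
Cyp4a14: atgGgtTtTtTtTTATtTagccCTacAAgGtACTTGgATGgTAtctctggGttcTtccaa
Cyp4a31: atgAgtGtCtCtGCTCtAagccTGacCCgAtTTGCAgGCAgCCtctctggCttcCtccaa
Cyp4a32: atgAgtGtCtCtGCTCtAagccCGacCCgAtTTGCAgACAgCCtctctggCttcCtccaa

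**Figure D4:**
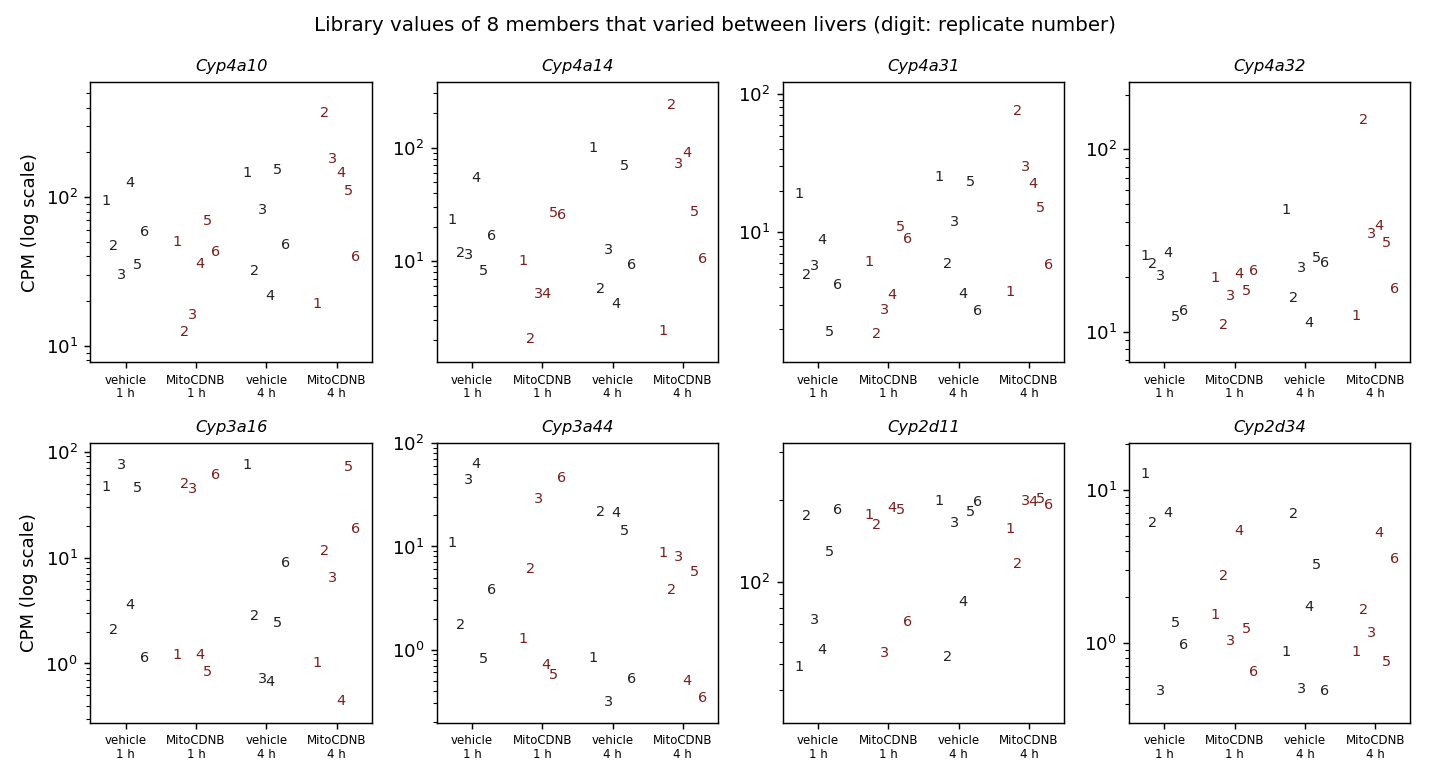
CPM (y axis, log scale) of 8 members that varied between livers, by group (x axis), with each digit giving the replicate number of its library. MitoCDNB replicate 2 of 4 h is the highest library for all 4 Cyp4a genes, and the highest Cyp3a16 library of each group lies at 60.5 to 75.3 CPM, far above the lowest at 0.442 to 1.12 CPM.

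PPAR alpha targets outside the P450 genes were compared with Cyp4a10 from liver to liver. The 13 targets given here had a positive r with it within groups, from 0.38 for Fabp1 to 0.78 for Acot1, a thioesterase that releases fatty acids from coenzyme A. Without the pair of libraries that stood apart the range was 0.34 to 0.73. Without the 2 libraries farthest from the median of Cyp4a10 it was 0.42 to 0.71, and Spearman's rho ran from 0.37 to 0.73. With Cyp4a14 the range without the pair was 0.22 for Pdk4 to 0.78 for Acot1. Over the other 13832 tested genes the median r with Cyp4a10 was 0, and 11.2% had an r at least as high as the lowest of the 13. These r are descriptions of the same 24 libraries, with depth and scaling in common. In no comparison was any of the 13 called. The PPAR alpha gene itself was at 118 ± 25.4 and 125 ± 17 CPM at 1 h and 170 ± 35.2 and 187 ± 18 CPM at 4 h (vehicle and MitoCDNB). It was called for time in vehicle (Ppara, log2 0.52, adjusted p = 0.0235).

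The other subfamilies were more uneven than Cyp4a. The members lie on 8 chromosomes, with 15 each on chromosomes 7 and 19 and 14 on chromosome 4. The median r of pairs within groups was 0.86 for the 6 Cyp4a pairs, 0.42 for 78 Cyp2c pairs, 0.33 for 36 Cyp2d pairs, 0.30 for 15 Cyp3a pairs, 0.28 for 6 Cyp2a pairs, 0.16 for 15 Cyp4f pairs and -0.17 for 3 Cyp2j pairs, beside 0.07 for 1326 pairs of different subfamilies. Single pairs ran from -0.46 to 0.96 in Cyp2c, -0.21 to 0.82 in Cyp2d and -0.06 to 0.80 in Cyp3a. Members of a subfamily also share sequence. Of the 50-base stretches, 60.3% in Cyp2c40, 54.3% in Cyp2c69, 52.8% in Cyp2c67 and 43.3% in Cyp2c68 occur in another gene as well, and their part in r was not tested. No source used here says how reads that match several genes were counted, so the split among these members is uncertain. Cyp2c37, Cyp2c50 and Cyp2c54, with r of 0.90 to 0.96, share 18.3% to 30.1%.

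**Figure D5:**
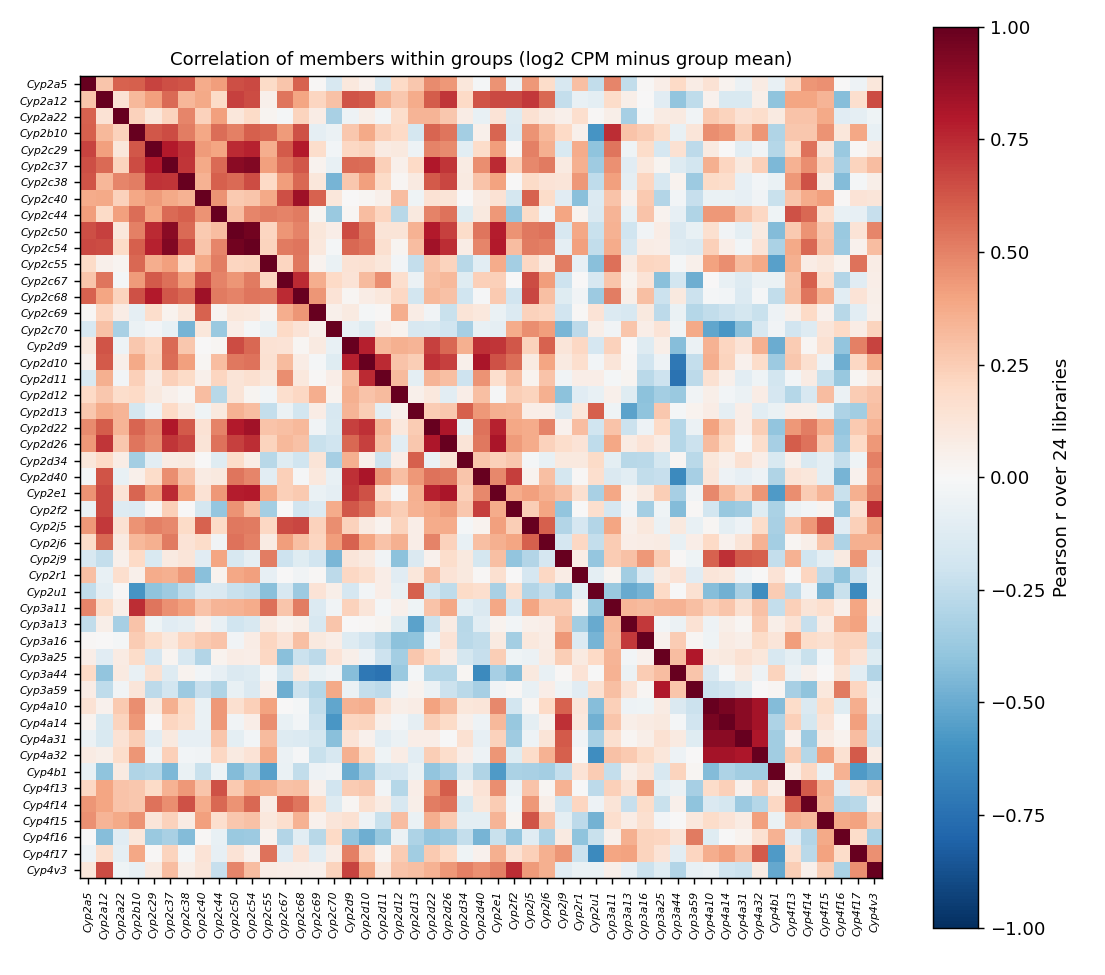
Pearson's r between members with a mean of at least 1 CPM over 24 libraries, from log2 CPM after subtracting each group's mean, with members ordered by subfamily on both axes and r given by the colour scale. The 4 Cyp4a genes form a block at 0.81 to 0.95, and the Cyp2c genes a more uneven one with a median of 0.42, in which Cyp2c37, Cyp2c50 and Cyp2c54 reach 0.90 to 0.96.

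Promoters are shown for tested members that share a match to a receptor motif. RefSeq starts (GRCm38.p6) were found for 59 members, with 66 promoters, and the 250 bases before each start were searched on both strands. The HNF4 element CAAAGTCCA was in 8 of the 66 promoters (12.1%), beside 0.384% of all 32851 promoters. Of these, 4 belong to Cyp2c40, Cyp2c67, Cyp2c68 and Cyp2c69, which share much of their sequence and are not independent, and 1 to Cyp2c65, which did not pass the count filter. A direct repeat of AGGNCA with 1 base between, which HNF4 and PPAR receptors can bind, was in 3 promoters (4.55%), beside 0.338% of all. The repeat with 4 bases between was in 1 (1.52% beside 0.213%), the D-box TTANGTAA in 1 (1.52% beside 2.06%) and the E-box CACGTG in 2 (3.03% beside 6.02%). A match is only a description of these letters. That of Cyp3a11 (chr5:145879955-145879963) lies before the RefSeq start but inside the GENCODE M21 span given above for this gene.

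The capitals mark CAAAGTCCA in the windows of Cyp2c40 (chr19:39812831-39812879), Cyp2c67 (chr19:39649139-39649187), Cyp2c68 (chr19:39741150-39741198), Cyp2c69 (chr19:39886816-39886864), Cyp2c70 (chr19:40187322-40187370), Cyp3a11 (chr5:145879935-145879983) and Cyp3a16 (chr5:145469794-145469842), all given 5′ to 3′ on the gene's strand, which is the minus strand.
Cyp2c40: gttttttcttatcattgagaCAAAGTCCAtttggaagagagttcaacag
Cyp2c67: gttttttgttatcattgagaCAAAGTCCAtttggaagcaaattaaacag
Cyp2c68: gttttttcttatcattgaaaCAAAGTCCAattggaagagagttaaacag
Cyp2c69: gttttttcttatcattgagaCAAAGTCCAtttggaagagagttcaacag
Cyp2c70: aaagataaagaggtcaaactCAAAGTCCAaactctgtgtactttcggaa
Cyp3a11: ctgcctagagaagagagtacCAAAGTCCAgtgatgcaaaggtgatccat
Cyp3a16: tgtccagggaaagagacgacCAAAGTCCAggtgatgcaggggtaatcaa

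Among Cyp2c40, Cyp2c67, Cyp2c68 and Cyp2c69 r ran from 0.36 to 0.85, and none was called in any comparison. The r of Cyp2c70 with them was 0.05 to 0.20, and that of Cyp3a16 with Cyp3a11 was 0.32. Cyp2d9, Cyp2d10 and Cyp2d40, named here after their values were seen, carry the direct repeat, in capitals below, and had r of 0.73 to 0.82. Without the 2 libraries farthest from the median of the first gene of each pair r was 0.34 to 0.64, and without the pair of 4 h libraries that stood apart 0.78 to 0.84. Spearman's rho was 0.62 to 0.80. Over all 36 Cyp2d pairs the median r was 0.33, and Cyp2d22 with Cyp2d26, neither of them listed with the repeat, had 0.81. Of the 50-base stretches, 21.8% in Cyp2d9, 35.8% in Cyp2d10 and 14.5% in Cyp2d40 also occur in other genes. The part of shared sequence in r was not tested. The windows lie at chr15:82452303-82452355 (Cyp2d9, plus strand), chr15:82407219-82407271 (Cyp2d10, minus strand) and chr15:82764207-82764259 (Cyp2d40, minus strand).
Cyp2d9: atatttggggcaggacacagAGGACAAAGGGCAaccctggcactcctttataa
Cyp2d10: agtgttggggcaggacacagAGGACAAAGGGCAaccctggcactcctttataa
Cyp2d40: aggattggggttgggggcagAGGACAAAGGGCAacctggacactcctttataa

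The rule for naming also took the most abundant tested member of subfamilies not yet covered. Cyp2u1, a hydroxylase of long-chain fatty acids, was at 14.1 ± 3.89 and 12.1 ± 1.48 CPM at 1 h and 11.4 ± 3.71 and 12.3 ± 4.76 CPM at 4 h (vehicle and MitoCDNB). Cyp4v3, the mouse counterpart of a gene of fatty acid omega-oxidation in the retina, had log2 fold changes of 0.11 (SE 0.0754) and -0.07 (SE 0.0754). Cyp2s1 was at 0.250 ± 0.155 and 0.436 ± 0.324 CPM at 1 h (log2 0.80, SE 0.552). Cyp2g1, best known from the nasal lining, was at 0.396 ± 0.201 and 0.197 ± 0.0963 CPM at 1 h (log2 -0.96, SE 0.477, adjusted p = 0.300). None of these passed the test in any comparison.

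The 17 members under the filter had 0 to 148 counts in all libraries together. Cyp2j12 and Cyp2b23 had 0. Of the symbols of the same families that the rule leaves out, Cyp4a12a, a male-biased arachidonic acid hydroxylase, was at 257 ± 67.6 and 278 ± 38.9 CPM at 1 h, and Cyp3a41a, a female-biased Cyp3a gene, at 19.2 ± 12.8 and 14.3 ± 4.54 CPM (vehicle and MitoCDNB). Neither they nor Cyp4a12b and Cyp3a41b were called in the 4 comparisons.

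Genes that supply or control the P450 enzymes were taken from lists of their own, to be read against the 2.7% of all genes called higher and 3.87% lower at 1 h, 0.824% called at 4 h and 5.44% over time in vehicle. Of 17 electron donors and haem synthesis genes 0 were called for MitoCDNB at either time. Alas1, the rate-limiting enzyme of haem synthesis, was at 308 ± 141 and 205 ± 78.1 CPM at 1 h (log2 -0.59, adjusted p = 0.460) and 366 ± 119 and 200 ± 110 CPM at 4 h (log2 -0.87, adjusted p = 0.271). Por was called higher over time in vehicle, from 184 ± 23.2 to 329 ± 115 CPM (log2 0.84, adjusted p = 0.00786), and Cyb5b lower, from 341 ± 40.7 to 256 ± 18.5 CPM (log2 -0.41, adjusted p = 0.00141).

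Of 16 nuclear receptors and cofactors that control P450 genes 1 rose at 1 h, Ppard (log2 0.66, adjusted p = 0.00129), and 0 were called at 4 h. Over time in vehicle, the bile acid receptor Nr1h4 (log2 0.43) and Ppara were higher and the coactivator Ppargc1a lower (log2 -0.92, adjusted p = 0.0417). Among 12 clock and PAR bZIP factors 3 rose and 2 fell at 1 h, beginning with Nfil3, a repressor of D-box genes (log2 1.75, adjusted p = 1.1e-04), and 2 rose at 4 h. Between the vehicle groups 4 of these 12 were higher at 4 h and 2 lower, with the smallest p for Clock (log2 -0.60, adjusted p = 8.89e-04, edgeR). Of 10 growth hormone signalling genes 0 were called for MitoCDNB at either time, and of 9 eicosanoid enzymes outside the P450 genes 0. In the interaction, which called 4.07% of all genes, 1 growth hormone gene was lower, Jak2 (log2 -0.47, adjusted p = 0.0306, edgeR). Of the 12 clock and PAR bZIP factors 1 was called higher and 3 lower in it, and of the nuclear receptors and eicosanoid enzymes 0 were called. Of the growth hormone genes, Socs3 was higher at 4 h in vehicle (log2 1.96, adjusted p = 0.0143, edgeR) and Stat5b lower (log2 -0.70, adjusted p = 0.00435).

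Markers of liver zones and P450 genes that the rule does not take were listed too, with the same shares of all genes as background. Of 9 pericentral markers outside the P450 genes 1 fell at 1 h, the Wnt feedback gene Axin2 (log2 -1.31, adjusted p = 3.11e-04), and 0 were called at 4 h. Of 9 periportal markers 1 rose at 1 h and 2 at 4 h, Etnppl and the urea cycle enzyme Cps1 (log2 0.45, adjusted p = 0.0142). Of 20 tested P450 genes that the rule does not take, 1 fell at 1 h and 0 were called at 4 h. The gene that fell was Cyp39a1, an oxysterol 7-alpha-hydroxylase (log2 -0.50, adjusted p = 0.0332). These 20 include Cyp4a12a, Cyp4a12b, Cyp3a41a and Cyp3a41b, which are of families 3 and 4. In the interaction Axin2 (log2 1.67), Cps1 (0.53) and Cyp39a1 (0.71) were called, beside 4.07% of all genes. In bulk RNA, fewer cells of a type and less RNA per cell cannot be told apart.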

How the data were processed

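The authors deposited whole-number counts, 1 row for each gene symbol and 1 column for each liver. The submitters' processing notes name the build mm10 and the tools HISAT2, Trim Galore, DESeq2 and CASAVA (version 1.8.4), with no role or order. Not given in the sources used here: the counting tool, its annotation and its treatment of reads that match several genes. Per the labels' protocol the NEBNext Ultra kit was used, so strand is not assumed. Replicates are mice, n = 6 per group.

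Genes were kept by filterByExpr (minimum count 10, total 15), which left 13833. TMM-scaled counts of all 24 libraries were fitted by group with the robust quasi-likelihood test of edgeR 4.0.16 (R 4.3.3) and adjusted over all tested genes. CPM use TMM-scaled library sizes. The SE of a log2 fold change is its absolute value divided by the square root of the F statistic of the edgeR test. The fit was tested on simulated data. DESeq2 1.42.0 and limma-voom (limma 3.58.1, with a quality weight for each library) were alternatives. Exon lengths, coding sequences and positions came from GENCODE M21 and RefSeq. For correlations each group's mean log2 CPM (prior count 2) was subtracted.

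The members and lists were chosen with earlier results of these data known. From the list of PPAR alpha targets 1 gene is not reported here. Members named are those called, or the 3 with the smallest p for MitoCDNB and its interaction. To these come members called over time, the 10 most abundant per length, the most abundant of each remaining subfamily and the 3 most variable in vehicle with a mean of at least 1 CPM. From other lists, up to 4 called genes or the one with the smallest p were open to naming. Libraries of the same group differed beyond sampling noise (chi-square per degree of freedom 15.7 to 565 over 60 pairs). Kupffer, endothelial, stellate, kidney, intestine and pancreas marker lists were also measured. Of 7 endothelial markers 1 rose at 1 h, Lyve1, beside 6.57% of all genes called. At 4 h 1 rose, Lyve1, and 3 fell, Clec4g, Kdr and Oit3, beside 0.824% of all genes called. Kdr and Clec4g were also called lower in the interaction, beside 4.07% of all genes called. In the other lists of this kind 0 were called for MitoCDNB. Of the 12 brain markers 0 were called, and of the 5 cholangiocyte markers Spp1 rose at 1 h.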

Additional observations from a re-analysis of the deposited data

Results flagged for a closer look

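In 32 members, each group of 6 libraries was examined for a single library far from the others. Chance flags about 1 of 20 such groups when values are normally distributed. Of 128 groups 14 held one. The 32 were the members named by rule, the 3 most variable among them, with Cyp4a14, Cyp4a31, Cyp4a32, Cyp2d11, Cyp2d12 and Cyp2a4 added. Since some were chosen for spread and CPM were not log-transformed, the number flagged cannot be set against that rate.

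MitoCDNB replicate 2 of 4 h lay far above the other 5 libraries of its group in Cyp4a14 (235 CPM, others at most 88.8), Cyp4a31 (75.9, others at most 29.6) and Cyp4a32 (146, others at most 38.1). Vehicle replicate 4 of 1 h was high in Cyp4a14 (54.2, others at most 23.2) and in Cyp2c39 (2.82, others at most 0.815). MitoCDNB replicate 1 of 1 h was high in Cyp2c39 (0.813, others at most 0.508).

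Cyp3a16 was high in vehicle replicate 1 of 4 h (75.3 CPM, others at most 8.90) and in MitoCDNB replicate 5 of 4 h (71.0, others at most 18.5). Cyp2a4 was high in MitoCDNB replicate 6 of 1 h (5.26, others at most 0.731) and in vehicle replicate 5 of 4 h (1.67, others at most 0.662). The same MitoCDNB replicate 6 of 1 h was high in Cyp2g1 (0.382, others at most 0.200) and low in Cyp2d9 (720, others at least 1050).

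Cyp2f2 was low in vehicle replicate 3 of 1 h (922 CPM, others at least 1040), and Cyp2d26 was high in MitoCDNB replicate 4 of 1 h (609, others at most 530).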

How the results depend on the processing

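The count of called members at 1 h, 3 in the reported fit, was 1 with no count filter, 1 (Cyp2j9, none of the 3) in a fit of only the groups compared, 0 within replicates 1 to 3, and 0 to 2 when 1 library was left out. It was 2 with a filter on a mean of at least 1 CPM and 2 with a term for replicates 4 to 6 of 1 h. Within replicates 4 to 6 it was 2, Cyp2c29 and Cyp2t4, while Cyp2a5 and Cyp2d13 did not pass. With the replicate number as a block it was 0 at 1 h, where Cyp2d13, Cyp2a5 and Cyp2t4 had adjusted p of 0.0835, 0.0854 and 0.134. Same-numbered libraries had r of -0.067 to 0.212 at 1 h and -0.213 to 0.265 at 4 h, and 3 and 2 of 6 correlated best with their own number, so the numbers were not taken to pair the samples. At 4 h, where 0 were called, DESeq2 called 1 and single omissions 0 to 2. In the interaction limma-voom called 1 in place of 0, and single omissions 0. Over time in vehicle, 2 were called in the reported fit, 1 with no count filter, 1 in a fit of only the groups compared, 0 with a term for replicates 4 to 6 of 1 h, 1 without the pair of 4 h libraries that stood apart, and 0 to 2 in single omissions. The cause of these changes was not tested. Other size factors, no robust estimation and leaving out the Mup genes changed no count. No member's call changed sign under any alternative run. Of the member values under all alternatives 61 lost and 8 gained a call, 73 moved by more than 1 SE of the reported value, and 5489 did neither. Only the values called in the reported fit, 3 at 1 h and 2 over time in vehicle, could lose a call. The 61 are therefore not to be read as a share of all these values. Depth limits the scarce members Cyp2t4, Cyp2c39, Cyp2g1 and Cyp2s1, each under 1 CPM on average.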

Other observations

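Cyp2d11, an abundant member of the Cyp2d cluster, took low values in 7 libraries and high values in 17, with none between 84.4 and 116 CPM. The low libraries were vehicle replicates 1 (48.5 CPM), 3 (72.0) and 4 (55.9) and MitoCDNB replicates 3 (54.6) and 6 (71.0) of 1 h, and vehicle replicates 2 (53.0) and 4 (84.4) of 4 h. Cyp3a44, on another chromosome, was at 10.8 to 62.9 CPM in these and at 0.313 to 14 CPM in the other 17. Cyp2d10 was at 489 to 658 CPM in the low libraries and at 702 to 857 CPM in the others, and 26.9% of the 50-base stretches of Cyp2d11 occur in Cyp2d10. These libraries were set apart by the value of Cyp2d11 itself, so no test was made.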
